A study of Macaca mulatta with 136 samples.

Results

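The neural retina of the rhesus macaque was compared between the perimacula, which lies between the macula and the periphery, and the temporal periphery. The comparison used 8 of the 32 libraries in the study, 4 from the perimacula and 4 from the periphery, chosen by the tissue and location in their labels. Each library was a poly(A) RNA-seq library of a 2 mm punch, and the 4 libraries of a location came post mortem from the right and left eyes of 2 adult animals, RM03 and RM04. No treatment or genotype is given for either animal. The replicates were numbered 1 for the RM03 right eye, 2 for the RM03 left eye, 3 for the RM04 right eye and 4 for the RM04 left eye. The 4 foveal libraries of the same eyes entered the fit to share the estimate of spread, and the 4 nasal libraries gave another location outside the macula. Fellow eyes share an animal, so 4 eyes are not 4 animals, and the p-values measure the spread between eyes after the animal was accounted for.

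The primate retina is not uniform. Cones and the ganglion cells that serve them crowd toward the fovea, rods dominate outside it, and ganglion cells thin to a sparse layer in the far periphery. Müller glia span the whole thickness of the retina, buffer potassium and recycle transmitter, and take part in the visual cycle that returns bleached chromophore to photoreceptors. A punch of tissue holds all of these cells, so a bulk library cannot tell fewer cells of a type from less RNA per cell.

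Summed estimated counts ranged from 42448891 to 57150491 in the perimacula and from 68510820 to 78574034 in the periphery. Each peripheral library was sequenced on 2 lanes of 1 flow cell that held no retina library of another location, whereas the perimacular, foveal and nasal libraries shared 5 lanes on 2 other flow cells. The periphery can therefore not be told apart from its flow cell in any value given here. Pairs of libraries of a location differed by 10.9 to 70.8 times the counting variance, so none was a duplicate. The labels of the animals held: 16 of 16 gene entries that separated RM03 from RM04 at the fovea and nasally, in both tissues, kept the same side in the perimacular and in the peripheral retina. Perimacular replicate 4 stood apart from the other 3, with the highest level of 17 of 17 ganglion cell genes and the lowest of 9 of 10 rod genes among the perimacular libraries. Peripheral replicate 2 had the lowest level of 17 of 17 ganglion cell genes among the peripheral libraries.

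Of 15380 genes tested, 7733 (50.3%) differed between perimacula and periphery at an adjusted p under 0.05 (edgeR quasi-likelihood test, Benjamini-Hochberg adjustment). The periphery was higher for 4130 genes (26.9%) and the perimacula for 3603 (23.4%). Differences over 1 on the log2 scale were found for 1087 genes (7.07%) higher in the periphery and 930 (6.05%) higher in the perimacula. The 4 peripheral values lay above all 4 perimacular values for 2896 genes (18.8%) and below them for 2605 (16.9%). The median absolute log2 fold change was 0.38 and the median standard error 0.13. Without replicate 4 the test called 6313 genes, and the lowest number without any replicate was 6095, without replicate 1. Levels are given as CPM, counts scaled to a common library total, after TMM normalization, fold changes (or the amounts by which a gene rose or fell) are periphery minus perimacula on the log2 scale ± SE, and adjusted p-values are from the edgeR test unless another comparison is named. Genes were grouped into 26 lists of cell type markers and pathways with 274 entries (1 gene may stand in more than 1 list), of which 236 were tested, 17 were not analysed here, 14 had several gene entries for 1 symbol and 7 were too low. Counts of list members that rose or fell are to be read beside the 26.9% and 23.4% of all genes that did so. Counts without overlap are to be read beside 18.8% and 16.9%.

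Ganglion cell genes were lower in the periphery as a whole list. All 17 tested members fell, against 23.4% of all genes, and in all 17 the 4 peripheral libraries lay below the 4 perimacular ones, as in 16.9% of all genes. Their median log2 fold change was -2.31, beside 0.04 for all genes tested. Without replicate 4, 16 of 17 fell.

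RBPMS, an RNA-binding protein used as a pan-ganglion cell marker, stood at 115, 105, 91.6 and 231 CPM in perimacular replicates 1 to 4 and at 17.3, 7.3, 16 and 10.3 CPM in the periphery. The high perimacular value was replicate 4, and the groups did not overlap. The log2 fold change was -3.40 ± 0.32 (adjusted p = 9.05e-06, n = 4 eyes each, edgeR), and -2.95 without replicate 4. POU4F2, a transcription factor of ganglion cell identity, stood at 35.5, 29.4, 21.9 and 63.6 CPM in the perimacula against 6.31, 2.16, 4.44 and 3.72 CPM in the periphery. It fell by 3.17 ± 0.35 (adjusted p = 2.73e-05, edgeR). EBF3, another transcription factor of these cells, stood at 17.6, 19.5, 18.6 and 31.4 CPM against 3.30, 1.46, 4.74 and 3.38 CPM, a log2 fold change of -2.77. In each of these genes the lowest peripheral value was that of replicate 2.

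The neurofilament subunits, which fill the axons of ganglion cells, moved the same way. NEFL stood at 1083, 1024, 723 and 1538 CPM in the perimacula and at 241, 114, 182 and 151 CPM in the periphery (log2 fold change -2.67 ± 0.25). NEFM fell by 2.68 and NEFH by 2.31. Smaller decreases were found for UCHL1, a neuronal ubiquitin hydrolase (-1.11), SNCG, gamma-synuclein (-1.36), and GAP43, a growth cone protein (-0.65). OPN4, the photopigment melanopsin of intrinsically photosensitive ganglion cells, was measured at 3.83, 4.32, 9.82 and 12 CPM in the perimacula against 2.78, 1.31, 3.76 and 2.68 CPM in the periphery, a fold change of -1.37. The perimacular values of OPN4 were higher in both eyes of RM04 than in both eyes of RM03.

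**Figure D1:**
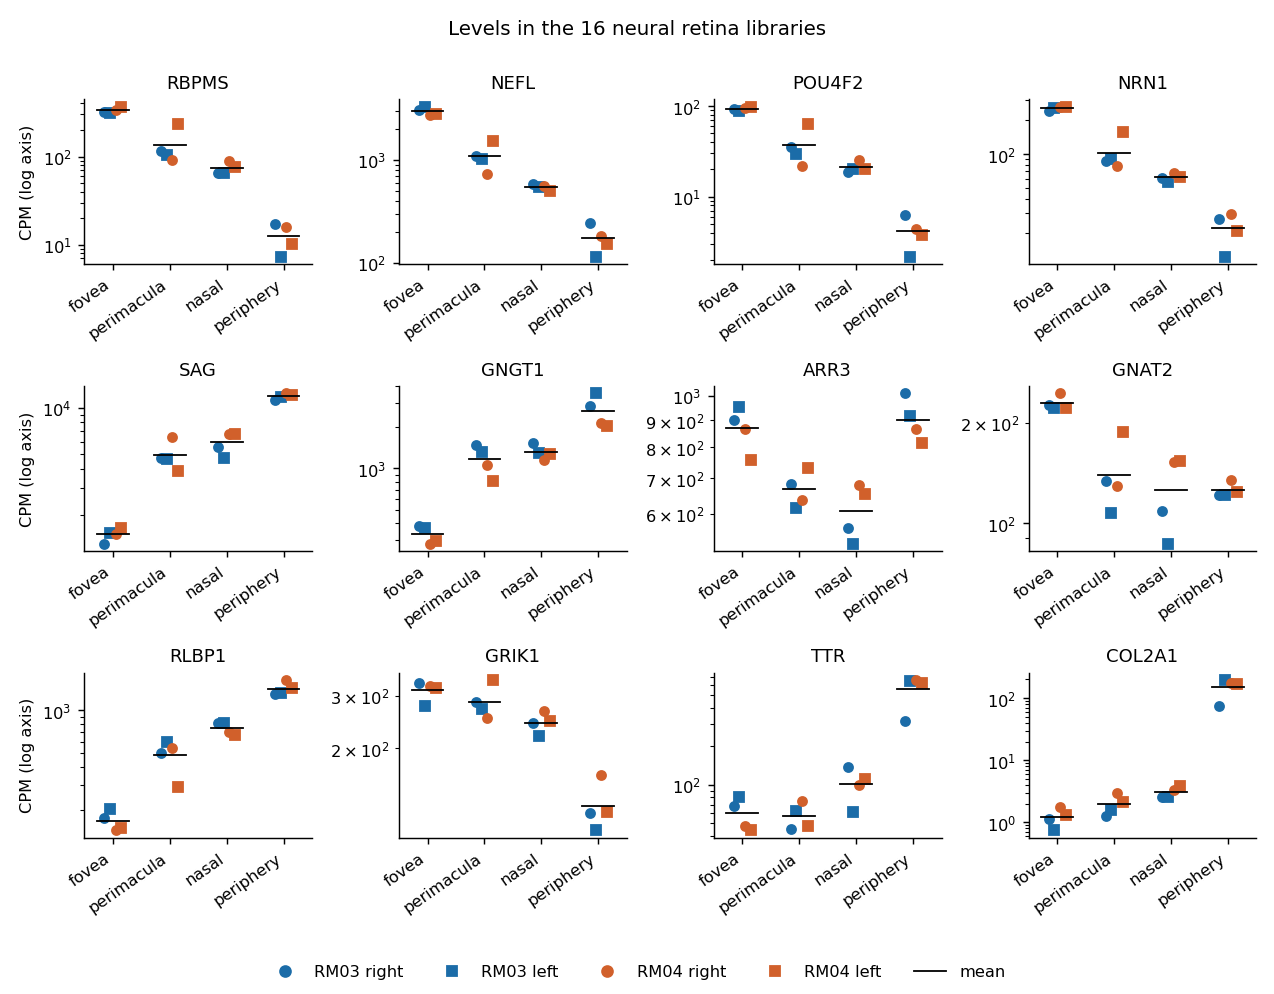
Level of 12 genes in the 16 neural retina libraries, in CPM on a log axis, by location, with colour for the animal, shape for the eye and a bar for the mean of the 4 libraries. The ganglion cell genes RBPMS, NEFL, POU4F2 and NRN1 lie lowest in the periphery, where RBPMS is at 7.3 to 17.3 CPM, the rod genes SAG and GNGT1 lie highest there, and COL2A1 rises from 1.26 to 3.02 CPM in the perimacula to 75.2 to 194 CPM in the periphery.

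Outside the lists, the steepest decreases among genes at a mean of at least 3 log2 CPM included a channel, a synaptic protein and a corepressor. KCNC2, a subunit of Kv3 potassium channels, stood at 301, 240, 198 and 538 CPM in the perimacula and at 48.5, 25.4, 48.4 and 33.4 CPM in the periphery, a log2 fold change of -3.03 ± 0.31. SYT2, a fast calcium sensor of transmitter release, fell by 2.83, ELAVL2, a neuronal RNA-binding protein, by 2.95, and B4GALNT1, a ganglioside synthase, by 2.88. ISLR2, a membrane protein of growing axons, fell by 2.71. HR, a nuclear corepressor known for its part in hair growth, was measured at 355, 321, 151 and 329 CPM against 70.7, 28.5, 27.1 and 21.9 CPM, a fold change of -3.02 ± 0.30. In these genes the groups did not overlap, and perimacular replicate 4 was the highest of its group in all but HR.

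Rod genes rose from perimacula to periphery. Of 10 tested members, 7 rose and none fell, against 26.9% and 23.4% of all genes, with a median log2 fold change of 0.61. The levels of 5 of the 10 lay higher in the periphery without overlap, as did 18.8% of all genes. SAG, the rod arrestin that ends rhodopsin signalling, stood at 4719, 4605, 6424 and 3856 CPM in the perimacula and at 11221, 11804, 12389 and 12049 CPM in the periphery, a fold change of 1.29 ± 0.13 (adjusted p = 1.23e-05, edgeR). GNGT1, the gamma subunit of rod transducin, stood at 1483, 1314, 1064 and 815 CPM against 2860, 3555, 2158 and 2056 CPM, a fold change of 1.19 ± 0.11. The peripheral SAG libraries were close to each other, while both eyes of RM03 were above both eyes of RM04 for peripheral GNGT1. CNGB1, a subunit of the rod channel, rose by 0.85 ± 0.13. NRL, the transcription factor that sets rod identity, did not pass the test (0.41 ± 0.17, adjusted p = 0.059), nor did SLC24A1, the rod exchanger (0.18 ± 0.10). With replicate 4 left out, 5 of the 10 rod genes rose, and the same number without replicate 1.

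Cone genes moved as a mixture. Of 11 tested, 6 fell, against 23.4% of all genes, 1 rose and 4 did not pass the test, with a median of -0.55. SLC24A2, the cone sodium-calcium exchanger, stood at 91.8, 82.7, 80.5 and 139 CPM in the perimacula against 37.7, 37.3, 40.3 and 37.1 CPM in the periphery (-1.36 ± 0.15). RXRG, a nuclear receptor of cones, fell by 1.06 ± 0.16, CNGA3, a subunit of the cone channel, by 0.68 ± 0.10, and GRK7, the cone opsin kinase, by 0.59 ± 0.09. ARR3, the cone arrestin, went the other way: 682, 615, 638 and 733 CPM in the perimacula and 1011, 917, 867 and 815 CPM in the periphery, a rise of 0.44 ± 0.09 (adjusted p = 0.00202, edgeR) with no overlap. GNAT2, the cone transducin, was at 134, 107, 129 and 187 CPM against 121, 121, 135 and 124 CPM (-0.14 ± 0.13). GNB3, its beta subunit, differed by 0.09 ± 0.10. Genes of the cone cascade thus had opposite signs within 1 set of libraries.

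Among 10 genes that rods and cones share, 7 rose, against 26.9% of all genes, and none fell, with a median of 0.40. GUCA1A, the activator of photoreceptor guanylate cyclase, stood at 1834, 1841, 1870 and 1335 CPM in the perimacula against 3010, 2858, 2546 and 2680 CPM in the periphery (0.70 ± 0.09). GUCY2D, the cyclase it acts on, rose by 0.45 and CABP4, a calcium sensor of the photoreceptor synapse, by 0.61. CRX, the transcription factor above both cell types, was the member with a negative difference (-0.35 ± 0.15, adjusted p = 0.0735, edgeR) and did not pass. The count of 7 dropped to 4 when replicate 1 or replicate 2 was left out, and 1 member fell with DESeq2, with RLE factors, with no filter, with the nasal libraries included or without replicate 4.

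The visual cycle genes of photoreceptors and Müller glia rose together, 6 of 7 members with a median of 0.87 and no overlap in any of the 6, where 26.9% of all genes rose and 18.8% lay higher without overlap. RLBP1, the retinaldehyde carrier of Müller glia, stood at 496, 601, 545 and 290 CPM in the perimacula and at 1287, 1319, 1621 and 1418 CPM in the periphery (1.58 ± 0.18). It was at 388 to 3380 CPM, with a median of 2190 CPM, in the peripheral RPE/choroid, the pigmented and vascular layers behind the retina, and the part of transcripts from those layers in its rise was not tested. The retinol dehydrogenases RDH10 (1.07 ± 0.16), RDH8 (0.87 ± 0.13), RDH11 (0.76 ± 0.06) and RDH12 (0.54 ± 0.11) rose as well. RBP3, the retinoid carrier between photoreceptors and the pigment epithelium, did not pass the test (0.41 ± 0.18).

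Müller glia genes were higher in the periphery, with 9 of 12 tested rising, against 26.9% of all genes, none falling and a median of 1.23. Leaving out any 1 replicate left 9 or 10 of them. SPP1, the secreted protein osteopontin, stood at 236, 259, 403 and 224 CPM in the perimacula and at 941, 1159, 1440 and 1160 CPM in the periphery (2.08 ± 0.16, adjusted p = 2.32e-06, edgeR). VIM, the intermediate filament vimentin, stood at 282, 341, 460 and 284 CPM against 999, 1056, 1325 and 1110 CPM (1.73 ± 0.13). In both genes replicate 3, the RM04 right eye, was highest at both locations. DKK3 (1.07), CLU (1.12) and AQP4, the water channel of glial endfeet (1.39), also rose. The members did not move as a block. SOX9, a glial transcription factor, differed by -0.05 ± 0.09, CA2, a carbonic anhydrase, by 0.09 ± 0.11, and KCNJ10, the potassium channel Kir4.1, by 0.18 ± 0.08, and none of these passed the test.

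The largest rise in level of any gene belonged to LOC106992286, which the reference gene table names TF, transferrin, the iron carrier. It stood at 2042, 2630, 3329 and 1404 CPM in the perimacula and at 10096, 12235, 14758 and 12683 CPM in the periphery, a fold change of 2.42 ± 0.22. In RPE/choroid libraries of the periphery the entry was at 112 to 994 CPM. GPX3, a secreted glutathione peroxidase, stood at 268, 498, 579 and 204 CPM against 1574, 1961, 2753 and 3533 CPM (2.63 ± 0.31), and was at 338 to 971 CPM in the peripheral RPE/choroid. For both genes the level was higher in the peripheral neural retina than in the RPE/choroid of the same location. GJA1, connexin 43 of glial gap junctions, rose from 2.81 to 9.45 CPM to 22.2 to 63.3 CPM (3.13 ± 0.31), and was at 50.1 to 330 CPM with a median of 175 CPM in the peripheral RPE/choroid, a median above all its retinal values. CA12, a membrane carbonic anhydrase, rose by 2.53 ± 0.41.

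**Figure D2:**
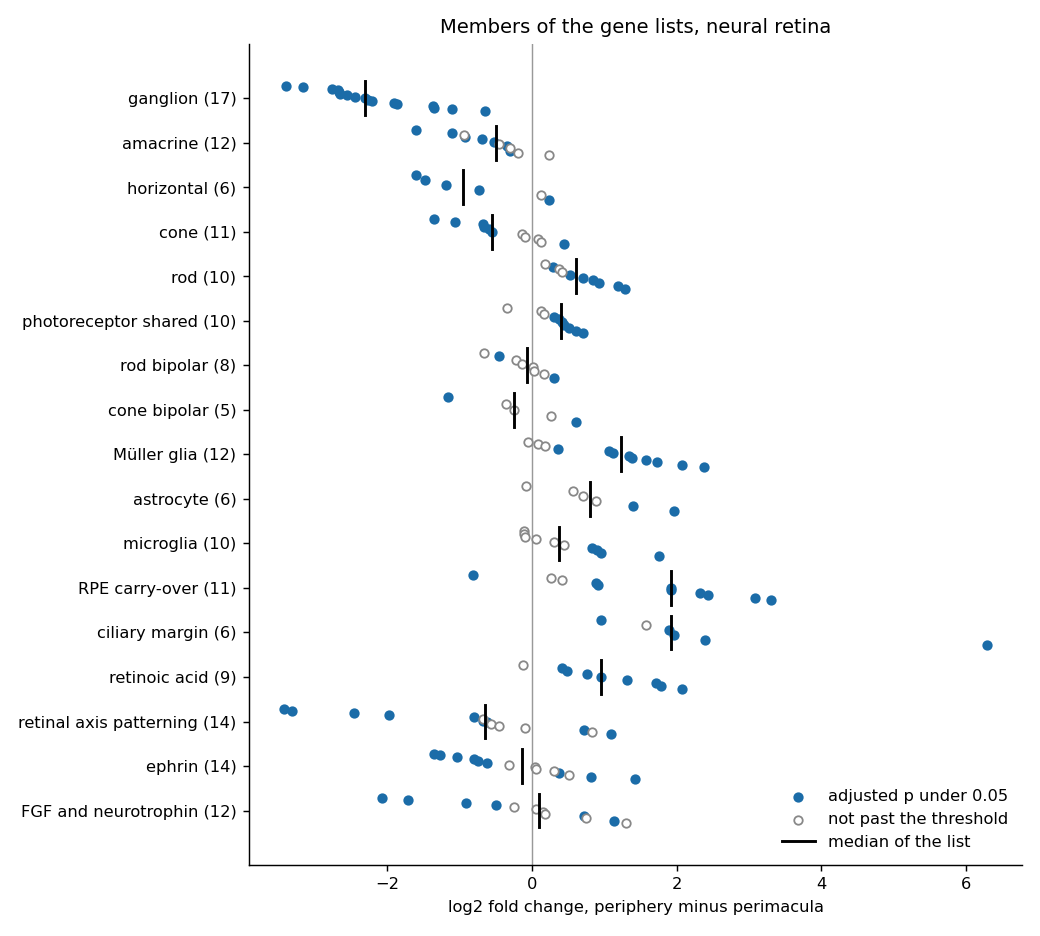
Log2 fold change, periphery minus perimacula, of each tested member of 17 gene lists, with the number of tested members in brackets. Filled points passed an adjusted p of 0.05, open points did not, and the bar is the median of the list. The ganglion list lies wholly below 0 with a median of -2.31, the Müller glia list has a median of 1.23, and COL2A1 in the ciliary margin list is the point at 6.30.

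Interneuron genes were listed by class. Of 12 amacrine genes, 7 fell, against 23.4% of all genes, none rose, and the median was -0.50. TFAP2A, a transcription factor of amacrine cells, stood at 52.1, 57.9, 76.2 and 65.7 CPM in the perimacula against 26.2, 21, 39.0 and 30.7 CPM in the periphery (-1.11 ± 0.10), and TFAP2B fell by 0.69 ± 0.10. DAB1, a reelin adaptor, fell by 0.92 ± 0.08. SLC6A9, the glycine transporter of glycinergic amacrine cells, fell by 0.53 ± 0.12, and GAD1, which makes GABA, by 0.35 ± 0.13. GAD2, the other GABA-synthesizing enzyme, was at 84.0, 78.8, 90.3 and 89.8 CPM against 54.1, 47.3, 116 and 97.6 CPM and did not pass. The peripheral values of GAD2 lay below the perimacular ones in RM03 and above them in RM04. The number of amacrine genes that fell was 4 without the animal covariate and 5 without replicate 1 or replicate 2.

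Horizontal cell genes fell in 4 of 6 members, against 23.4% of all genes, with a median of -0.96. CALB1, the calcium buffer calbindin, stood at 376, 402, 346 and 403 CPM in the perimacula and at 262, 269, 195 and 199 CPM in the periphery (-0.73 ± 0.09). ONECUT1, a transcription factor of horizontal cells, fell from 18.1, 11.2, 14 and 13.3 CPM to 4.03, 1.90, 5.65 and 8.46 CPM (-1.61 ± 0.31). GJA10, the horizontal cell connexin, was at 3.47 to 6.57 CPM against 4.97 to 5.77 CPM and did not pass. SEPT4 passed in the other direction (0.23 ± 0.08) but lost the call when any replicate was left out.

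Bipolar cell genes were listed for rod and for cone bipolar cells. Of 8 rod bipolar genes, 1 rose and 1 fell, beside 26.9% and 23.4% of all genes, and 6 did not pass. Their median was -0.06, and 3 fell without replicate 3. PRKCA, the protein kinase that marks rod bipolar cells, was at 48.6, 44.7, 57.3 and 50.5 CPM in the perimacula and at 46.2, 46.6, 56.6 and 52.1 CPM in the periphery (0.01 ± 0.09). GPR179, part of the postsynaptic complex of ON bipolar cells, fell by 0.46 ± 0.11. LRIT3, another synaptic protein of these cells, rose by 0.30 ± 0.09 but lost the call without replicate 1 or replicate 2. Of 5 cone bipolar genes, GRIK1, a kainate receptor of OFF bipolar cells, fell from 285, 270, 252 and 338 CPM to 121, 106, 163 and 122 CPM (-1.16 ± 0.12), and SCGN, secretagogin, passed in the other direction at a level near 1 CPM and lost the call without replicate 1, 3 or 4. With 1 of 5 cone bipolar genes rising and 1 falling, the shares were near those of all genes. The number of cone bipolar genes that fell was 3 without replicate 3. Of 7 neuropeptide genes 2 rose and 1 fell, shares near those of all genes, and 4 rose without replicate 2. TAC1, the precursor of substance P, rose by 1.12 ± 0.23, and CARTPT by 1.02 ± 0.27, the latter not without replicate 1. VIP was at 1.62 and 1.38 CPM in the perimacula of RM03 but at 35.2 and 27.5 CPM in that of RM04, against 0.558 to 1.88 CPM in the periphery. Its fall did not pass without replicate 3 or replicate 4.

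Glial and immune genes outside the Müller list were few. Among 6 astrocyte genes 2 rose and none fell, and the share that rose was near the 26.9% of all genes. The 2 were ALDH1L1, an enzyme of folate metabolism (1.97 ± 0.18), and S100B, a calcium-binding protein (1.40 ± 0.16). GFAP (0.57 ± 0.23), PAX2, CD44 and IGFBP2 did not pass. Among 10 microglial genes, 4 rose and none fell, beside 26.9% and 23.4% of all genes. CD74, the invariant chain of class II antigen presentation, stood at 27.5, 29.1, 29.7 and 22 CPM in the perimacula and at 69.5, 41.7, 166 and 118 CPM in the periphery (1.76 ± 0.28), and in the periphery it was higher in both eyes of RM04 than in both eyes of RM03. The complement genes C1QB (0.96 ± 0.15) and C1QC (0.90 ± 0.21) and AIF1, the cytoskeletal protein Iba1 (0.83 ± 0.14), rose as well. In the peripheral RPE/choroid C1QB was at 406 to 661 CPM and AIF1 at 56.8 to 73.8 CPM, both above their levels in the peripheral retina. The microglial receptors CX3CR1 (-0.11 ± 0.17) and P2RY12 (-0.11 ± 0.20) did not pass. Among 11 vascular genes 2 rose and 3 fell, shares near those of all genes (26.9% and 23.4%). VWF, the endothelial clotting factor, rose by 1.26 ± 0.14, while FLT1, a VEGF receptor, fell by 0.79 ± 0.11. VWF was at 377 to 629 CPM in the peripheral RPE/choroid, above its level in the peripheral retina. The other 3 calls of that list were PDGFRB, CDH5 and PECAM1, each under 0.5 in size and each lost without replicate 3 or replicate 4. Of 4 oligodendrocyte genes 2 rose, beside 26.9% of all genes. They were MAG, a myelin protein that was at most 0.509 CPM, and MBP, myelin basic protein. MBP did not pass without replicate 1 or replicate 2.

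Genes of the retinal pigment epithelium (RPE), the pigmented layer behind the photoreceptors, were higher in the peripheral neural retina. Of 11 tested, 8 rose, against 26.9% of all genes, 1 fell and 2 did not pass, with a median of 1.93. Their summed level before TMM scaling was 289 to 432 CPM in the perimacula, 417 to 606 nasally and 811 to 1504 in the periphery, against 12584 to 27910 CPM in the peripheral RPE/choroid libraries. TTR, the retinol-carrier partner transthyretin, stood at 45.2, 62.7, 74.4 and 47.9 CPM in the perimacula and at 315, 650, 657 and 624 CPM in the periphery (3.31 ± 0.28). In the RPE/choroid TTR was at 977 to 2223 CPM in the perimacula and at 1232 to 8794 CPM in the periphery. TYRP1, a melanin enzyme, rose by 1.93 ± 0.14 and BEST1, the RPE channel bestrophin, by 2.32 ± 0.26, while MITF, the pigment cell transcription factor, fell by 0.82 ± 0.18. RPE65, the isomerase of the RPE visual cycle, stood at 52.9, 104, 80.2 and 93.1 CPM against 121, 219, 118 and 158 CPM (0.91 ± 0.27). DCT was at or below 0.73 CPM in all 8 libraries. The choroid list of 8 genes summed to 31.7 to 42.8 CPM in the perimacula and 35.7 to 48.1 CPM in the periphery. Of its members 2 rose and 1 fell, beside 26.9% and 23.4% of all genes. The gene that fell was MYH11, smooth muscle myosin (-1.38 ± 0.22). Of those that rose, DCN, the matrix proteoglycan decorin, passed without any single replicate, whereas COL3A1, a fibrillar collagen below 1 CPM, did not pass without replicate 1, 2 or 4. An entry named HBB in the files, and HBE1 in the reference table, rose by 1.66 ± 0.19.

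RPE transcripts therefore differed between the groups being compared, and their part in the other differences was not tested. GPNMB, a glycoprotein of pigment cells, rose from 4.68, 6.59, 14.5 and 8.52 CPM to 31.7, 80.9, 78.5 and 105 CPM (3.17 ± 0.29) and was at 2421 to 3985 CPM in the peripheral RPE/choroid. VIM was at 2469 to 2804 CPM there and CD74 at 3275 to 4388 CPM, both above their levels in the peripheral retina, while SPP1, at 1055 to 2211 CPM, overlapped its retinal level. In the perimacular RPE/choroid CD74 was lower, at 1805 to 2090 CPM, and VIM was higher, at 3025 to 3487 CPM. RLBP1 and GJA1 had medians in the peripheral RPE/choroid above those in the peripheral retina. DKK3 was at 211 to 333 CPM in the peripheral RPE/choroid, below its level in the peripheral retina, and SAG was at 53.7 to 410 CPM.

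COL2A1, the type II collagen of cartilage and vitreous, had the largest fold change of all genes that the naming rule considered. It stood at 1.26, 1.59, 3.02 and 2.10 CPM in the perimacula and at 75.2, 194, 172 and 169 CPM in the periphery, a log2 fold change of 6.30 ± 0.32 (adjusted p = 2.3e-07, edgeR). The smallest estimate when a replicate was left out was 5.95. In the peripheral RPE/choroid it was at 2.68 to 27 CPM. It belongs to a list of genes known from the ciliary margin and the vitreous matrix. Of 6 tested members 5 rose, against 26.9% of all genes, with a median of 1.93. ZIC1, a transcription factor, rose from 2.06, 4.98, 3.65 and 1.73 CPM to 12.1, 16.3, 16.7 and 19.7 CPM (2.39 ± 0.30). COL9A1, a collagen that decorates type II fibrils, rose by 1.90 ± 0.27, and WNT2B, a secreted signal of the margin, by 1.96 ± 0.43. ZIC2 rose by 0.95 ± 0.36 with an adjusted p of 0.0455 (edgeR). Between 4 and 5 members of the list rose when a replicate was left out. TRDN, the calcium store protein triadin, rose from 0.544 to 2.23 CPM to 25.2 to 69.7 CPM (5.27 ± 0.42), and was at 54.7 to 84.2 CPM in the peripheral RPE/choroid.

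Transcription factors that pattern the axes of the retina differed in both directions. Of 14, 7 were lower in the periphery and 2 higher, beside 23.4% and 26.9% of all genes. IRX2 stood at 9.67, 11.8, 6.10 and 13.4 CPM in the perimacula and at 1.54, 0.541, 0.995 and 0.727 CPM in the periphery (-3.43 ± 0.31), and IRX1, its neighbour in the Iroquois family, fell by 3.32 ± 0.32. TBX2 and TBX3, dorsal factors, fell by 0.80 ± 0.12 and 0.62 ± 0.13. FOXD1, a factor of the temporal retina, stood at 6.01, 3.26, 2.31 and 7.59 CPM in the perimacula and at 1.39, 0.760, 0.841 and 0.606 CPM in the periphery (-2.46 ± 0.42). It was lower still in the nasal retina (nasal minus perimacula -6.07, adjusted p = 0.000152, edgeR). BMP4 (1.09 ± 0.26) and NR2F1 (0.72 ± 0.20) rose. Neither passed without replicate 4, and NR2F1 passed without replicate 2 but not without any of the others. In the peripheral RPE/choroid BMP4 was at 176 to 352 CPM and NR2F1 at 58.3 to 81.5 CPM, both above their levels in the peripheral retina. The part of transcripts from those layers in the 2 rises was not tested. TBX5, a dorsal factor, was at 0.267 and 0.0568 CPM in the perimacula of RM03 and at 5.44 and 4.11 CPM in that of RM04, while in the periphery replicate 2 alone was high, at 3.77 CPM against at most 0.0485 CPM in the others.

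Retinoic acid genes rose in 8 of 9 tested members, against 26.9% of all genes, with a median of 0.95. When a replicate was left out, 6 or 7 rose. ALDH1A3, a synthesizing enzyme, stood at 4.80, 5.06, 7.78 and 7.23 CPM in the perimacula and at 12.2, 43.3, 18.3 and 29.4 CPM in the periphery (2.08 ± 0.34). In the RPE/choroid it was at 39.4 to 133 CPM in the perimacula and at 172 to 970 CPM in the periphery. CRABP1, a cellular retinoic acid carrier, rose by 1.71 ± 0.35. RARB, a retinoic acid receptor, rose by 0.42 ± 0.09. ALDH1A2 was at 1.21 and 1.34 CPM in the periphery of RM03 and at 10.4 and 8.45 CPM in that of RM04, while the perimaculas were at 0.739 to 1.54 CPM.

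Guidance and growth factor genes were called in both directions. Of 14 ephrins and Eph receptors, 6 fell and 3 rose, beside 23.4% and 26.9% of all genes. EPHA5 (-1.36 ± 0.23), EPHA4 (-1.27 ± 0.20) and EPHA7 (-1.04 ± 0.15) were lower in the periphery, and EPHB3 was higher (1.42 ± 0.20). EPHA4 fell by 0.91 without replicate 4, and EPHA2, one of the receptors that rose (0.82 ± 0.22), did not pass without replicate 1 or replicate 2. Of 12 FGF and neurotrophin genes, 4 fell and 2 rose, beside 23.4% and 26.9% of all genes. BDNF, a neurotrophin of ganglion cells, stood at 18.5, 16.7, 12.6 and 23.5 CPM in the perimacula and at 4.63, 3.86, 4.39 and 3.96 CPM in the periphery (-2.08 ± 0.19). FGF9 fell by 1.71 ± 0.21 and FGF12 by 0.91 ± 0.18, whereas the receptors FGFR1 (1.13 ± 0.21) and FGFR2 (0.72 ± 0.20) rose, the latter not without replicate 2.

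Of 11 glycolysis and lactate genes with 1 entry, 4 fell and 2 rose, beside 23.4% and 26.9% of all genes. HK2, the hexokinase that photoreceptors use, stood at 756, 706, 886 and 723 CPM in the perimacula and at 483, 573, 342 and 394 CPM in the periphery (-0.78 ± 0.14). HK1 fell by 0.47 ± 0.07, and PFKM, a phosphofructokinase, rose by 0.76 ± 0.12. The entry named ENO1 was near 1 CPM in the perimacula and had no name in the reference table, so its rise (2.40 ± 0.19) cannot be read as that of the enzyme. The stress genes moved in both directions, 1 of 5 rising and 3 falling, beside 26.9% and 23.4% of all genes. DDIT3, the stress transcription factor CHOP, stood at 16.9, 17, 21.4 and 15.3 CPM against 40.2, 38, 38.9 and 33.7 CPM (1.11 ± 0.10), and CHAC1, a glutathione-degrading enzyme, fell by 2.78 ± 0.51. Of 9 immediate early genes, 3 fell and 1 rose, beside 23.4% and 26.9% of all genes. Without replicate 3 or replicate 4, 1 fell. EGR1 was at 22.3 and 29.2 CPM in the perimacula of RM03 and at 82.5 and 82.6 CPM in that of RM04, against 12.7 to 33.7 CPM in the periphery (-1.07 ± 0.21). The calls of FOSL2, EGR2, EGR3 and of the stress gene ATF3 were each lost without replicate 4.

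The largest decreases in level belonged to transcripts of the mitochondrial genome. COX1, subunit 1 of cytochrome oxidase, stood at 55133, 43288, 38966 and 51822 CPM in the perimacula and at 32268, 31924, 28298 and 25171 CPM in the periphery (-0.68 ± 0.13). ATP6, a subunit of ATP synthase, fell by 0.67 ± 0.16. CYTB and ND5 fell by 0.55 ± 0.14 and 0.49 ± 0.15, and their groups overlapped. Looked at after these values were seen, 8 of the 13 protein-coding mitochondrial genes fell, against 23.4% of all genes, none rose and 5 did not pass. Together the 13 took 14.8 to 21.7% of the counts in the perimacula and 10.5 to 15.1% in the periphery. The calls of ND4 and ND5 were lost without replicate 1 or replicate 4.

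The change from perimacula to periphery (the outer step) was then set against the change from fovea to perimacula (the inner step) in the same eyes. At the inner step 5416 genes (35.2%) were called, 2488 higher in the perimacula (16.2%) and 2928 lower (19%). The difference between the steps was called for 2396 genes (15.6%), 1421 positive (9.24%) and 975 negative (6.34%). It was called for 637 genes without replicate 1, 1001 without replicate 3 and 1567 without replicate 4. Both steps share the perimacular libraries, so a high or low perimacular value moves them in opposite directions.

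On the log2 scale rod genes rose more at the inner step than at the outer step. All 10 rose at the inner step, against 16.2% of all genes, with a median of 1.66 beside 0.61 at the outer step. The difference was called negative for 7 of 10, against 6.34% of all genes. Their summed level was 4309 to 5026 CPM in the fovea, 10974 to 17430 CPM in the perimacula and 25013 to 28404 CPM in the periphery. In CPM the outer step thus also held a large part of the rise. SLC24A1 rose by 1.5 from fovea to perimacula and by 0.18 from perimacula to periphery (difference -1.32, adjusted p = 0.000807, edgeR), and PDE6A, the rod phosphodiesterase, by 1.68 and 0.29. SAG rose by 1.70 and then 1.29, a difference of -0.41 that did not pass. CNGB1 and NR2E3, a nuclear receptor that represses cone genes in rods, were not called either.

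Ganglion cell genes fell at both steps, with a median of -1.33 at the inner and -2.31 at the outer step. At the inner step 16 of 17 fell, against 19% of all genes, and 1 rose, OPN4 (0.85). The difference was called for 4 of 17, all negative, beside 6.34% of all genes: RBPMS (-1.34 and then -3.40), POU4F2, EBF3 and OPN4. Amacrine genes had a median of 0.09 at the inner step against -0.50 at the outer step. TFAP2A differed by 0.11 between fovea and perimacula and by -1.11 between perimacula and periphery, and the difference was called (-1.23, adjusted p = 0.00115, edgeR). Of 11 RPE genes, the difference was called positive for 6, beside 9.24% of all genes. An example is TTR, with an inner step of -0.07 and an outer step of 3.31.

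Some genes turned at the perimacula. DDR2, a collagen receptor, rose by 1.90 from fovea to perimacula and fell by 0.94 to the periphery, with 21.2, 19.4, 19 and 16.3 CPM in the perimacula, 8.30, 13.4, 9.15 and 8.44 CPM in the periphery and 5.01 ± 0.91 CPM (SD, n = 4) in the fovea. KCNA1, a Kv1 potassium channel, rose by 0.57 and fell by 1.57. APOC1, an apolipoprotein, fell by 0.97 and rose by 2.08, to 19.8, 24, 25.9 and 29.5 CPM. In the RPE/choroid it was at 38.9 to 57.4 CPM in the perimacula and at 264 to 327 CPM in the periphery. ARR3 fell by 0.39 at the inner step and rose by 0.44 at the outer step (difference 0.83, adjusted p = 0.00632, edgeR). LOC704588, described as a pseudogene of the ribosomal protein RPL31 but without a name in the reference gene table, did not turn. It differed by -0.09 at the inner step, which did not pass, and rose by 2.75 at the outer step. LOC704588 was also at 21 to 42.5 CPM in the perimacular and 106 to 173 CPM in the peripheral RPE/choroid. The peripheral libraries of both tissues had their own flow cell, and its part in this rise cannot be told apart. Reads of the parent gene could have been counted in this entry. Over all genes, 394 were called at both steps in opposite directions, of which 168 were highest and 226 lowest at the perimacula, and 2990 were called at both in the same direction.

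**Figure D3:**
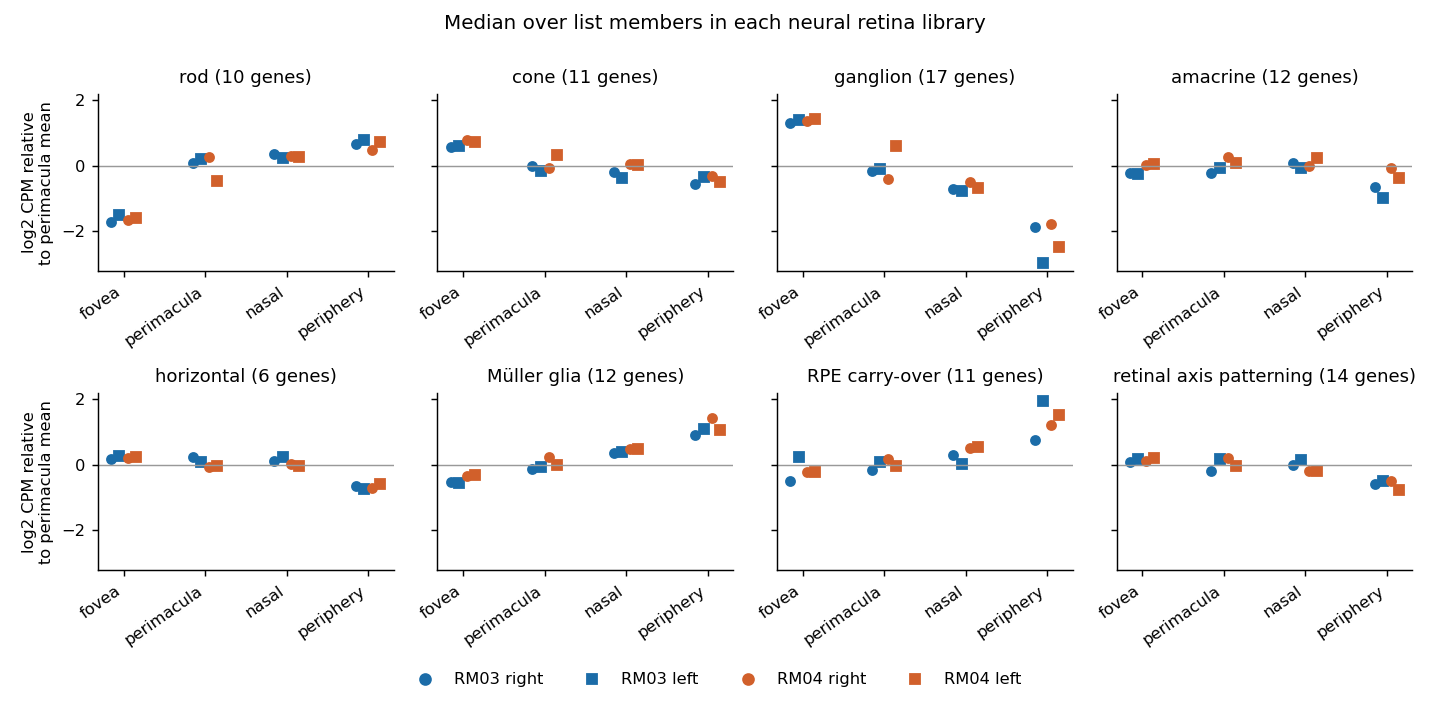
Median over the tested members of 8 gene lists in each of the 16 neural retina libraries, as log2(CPM + 0.5) relative to the mean of the 4 perimacular libraries, with colour for the animal and shape for the eye. Rod genes lie at -1.73 to -1.51 in the fovea and 0.48 to 0.77 in the periphery, ganglion cell genes at 1.30 to 1.42 in the fovea and -2.97 to -1.79 in the periphery, and horizontal cell genes at 0.19 to 0.27 in the fovea and -0.74 to -0.60 in the periphery.

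The nasal retina shared flow cells with the perimacula. Nasal minus perimacula called 231 of 15486 genes (1.49%), 162 higher nasally (1.05%) and 69 lower (0.446%), with a median absolute log2 fold change of 0.13. Without replicates 1, 2, 3 and 4 in turn, 22, 30, 66 and 14 genes were called. Of the ganglion list, 3 of 17 were called, NEFL (-1.0), NEFM (-1.14) and NEFH (-1.15), and the list's median was -0.73. Of the Müller glia list, SPP1 (1.11), VIM (0.76) and DKK3 (0.44) were called, with a list median of 0.45. LOC106992286 rose by 1.23 (adjusted p = 0.00958, edgeR), to 5508 ± 198 CPM (SD, n = 4). No member of the rod, RPE or ciliary margin lists was called, and COL2A1 differed by 0.64. The nasal and the peripheral comparison use the same perimacular libraries, so their likeness is given as values only.

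The change between the locations was tested for a difference between the animals. Of 15380 genes, 10 (0.065%) were called at an adjusted p under 0.05 (edgeR), 3 positive (0.0195%) and 7 negative (0.0455%), and 842 had an unadjusted p under 0.05. DESeq2 called 91. Each animal gave 2 eyes per location, and without replicates 1, 2, 3 and 4 in turn edgeR called 6, 2, 0 and 0 genes, with 1904, 484, 1547 and 811 at an unadjusted p under 0.05. The 3 genes with the lowest adjusted p were LOC721061, which the reference table names ECEL1, an endopeptidase of neurons, CHRND, the delta subunit of the muscle acetylcholine receptor, and PRSS56, a serine protease known for its part in eye growth.

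LOC721061 stood at 2.16 and 1.52 CPM in the perimacula of RM03 and at 389 and 242 CPM in that of RM04. In the periphery it stood at 35.5 and 56.8 CPM in RM03 and at 16.5 and 27 CPM in RM04. The order of the animals was therefore reversed between the locations, and the difference of the log2 fold changes was -8.52 (adjusted p = 0.00135, edgeR). CHRND stood at 0.097 and 0.0189 CPM in RM03 and at 26.2 and 18.9 CPM in RM04 in the perimacula, and at 0.461 to 1.22 CPM in the periphery. PRSS56 was at 0 and 0.0758 CPM in RM03 and at 43.2 and 32.6 CPM in RM04 in the perimacula, against 14.4 and 6.52 CPM in RM03 and 5.49 and 3.67 CPM in RM04 in the periphery. Averaged over the animals, none of the 3 passed the edgeR test between the locations. In the reference gene table of a later assembly, T2T-MMU8v2.0, ECEL1, PRSS56 and CHRND follow each other as neighbouring protein-coding genes.

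**Figure D4:**
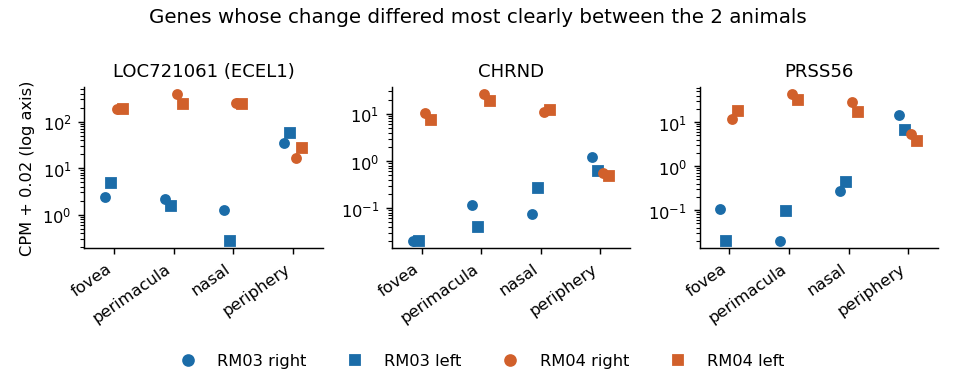
Level of LOC721061 (ECEL1), CHRND and PRSS56 in the 16 neural retina libraries, as CPM + 0.02 on a log axis, by location, with colour for the animal and shape for the eye. In the perimacula RM04 lies above RM03, for LOC721061 at 389 and 242 CPM against 2.16 and 1.52 CPM, as in the fovea and nasal retina, while in the periphery the 4 eyes lie together with RM03 above RM04, at 35.5 and 56.8 against 16.5 and 27 CPM.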

How the data were processed

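Poly(A) libraries of 2 mm neural retina punches (RIN above 6.5) were sequenced as paired ends. The authors quantified reads with Salmon 0.13 against the Mmul_8.0.1 build and deposited length-scaled TPM per lane, which are on the scale of estimated counts. The column is headed TPM, but its sums of 7933344 to 39445657 per lane are those of reads. Whether counting used strand is not given in the sources used here. Values were added up over the 2 or 5 lanes of each library and rounded, and 10 entries that repeated an identifier were left out, which left 19422 identifiers. Of the 15380 genes tested, 12884 had a symbol in the reference gene table. Among the 119 genes named by rule, 94 had the same name there, 5 another name and 20 none.

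Genes were tested with edgeR 4.0.16 (R 4.3.3; quasi-likelihood test, TMM, filterByExpr with a minimum count of 10) over the 12 fovea, perimacula and periphery libraries, with location and animal as terms and Benjamini-Hochberg adjustment over all genes. The same fit gave the difference of the outer and inner steps, an interaction of animal and location gave the difference between the animals, and a fit with the nasal libraries gave nasal minus perimacula. The study's own tests used the monkey as a covariate in DESeq2. Alternatives were DESeq2 1.42.0, RLE factors, other filters, equal depth, 2 lanes per library, other sets of libraries, other covariates and leaving out each eye. The scripts were tested on simulated counts first.

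Same-numbered libraries came from the same eye, as the labels state, so the numbers pair the samples by label. Deviations from the location means over 1000 genes correlated between perimacula and periphery by 0.146 to 0.606 for the same eye and by 0.434 to 0.671 for the fellow eye. Every perimacular library correlated more with the fellow eye, whereas peripheral replicate 1 correlated more with the same eye. The right-minus-left differences within an animal correlated by -0.21 in RM03 and by -0.532 in RM04, so the libraries of 1 eye did not deviate together beyond the animal. The members and lists were chosen with earlier results of these data known. Genes were named by rule: the 10 largest fold changes in each direction at a mean of at least 3 log2 CPM, the 5 largest differences in CPM, up to 3 called members of each list in each direction, the 4 largest step differences in each direction and the 3 lowest adjusted p-values for the animals. Other list members, the mitochondrial genes and levels in RPE/choroid were given after their values were seen. Some genes that the rule names are not reported here.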

Additional observations from a re-analysis of the deposited data

Results flagged for a closer look

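Each named gene at 1 of the 2 locations made a group of 4 libraries, 238 groups in all. In 12 groups a value lay farther from its neighbour than Dixon's 95% limit allows. Chance gives such a value in about 1 of 20 groups, so the 12 are near the number that chance gives. In the perimacula, replicate 4 (RM04 left eye) was the distant value for RBPMS at 231 CPM (others 91.6 to 115), EBF3 at 31.4 CPM (17.6 to 19.5), EPHA4 at 90.4 CPM (47.3 to 49.5), ASNS, asparagine synthetase, at 57.7 CPM (44.8 to 45.8) and GUCA1A at 1335 CPM (1834 to 1870). Replicate 3 was the distant perimacular value for CNGB1 at 1348 CPM (793 to 842) and for HR at 151 CPM (321 to 355).

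In the periphery, replicate 1 was distant for TTR at 315 CPM (624 to 657) and for HR at 70.7 CPM (21.9 to 28.5). Replicate 2 was distant for MYH11 at 2.76 CPM (5.78 to 6.04) and for DDR2 at 13.4 CPM (8.30 to 9.15), and replicate 4 for EPHA4 at 19 CPM (25 to 26.2). Leaving out the distant eye kept the call and direction of these 10 genes. The nearest to no change were GUCA1A at 0.60 without replicate 4 and ASNS at -0.37 without replicate 4.

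For 3 neighbouring genes the change from perimacula to periphery differed between the animals, RM04 minus RM03, in the edgeR interaction test (n = 2 eyes of each animal at each location). The difference was -8.52 on the log2 scale for LOC721061, named ECEL1 in the reference table (adjusted p = 0.00135), -9.54 for CHRND (adjusted p = 0.00198) and -10.94 for PRSS56 (adjusted p = 0.00198). At the fovea LOC721061 was at 2.36 and 4.77 CPM in RM03 against 188 and 191 CPM in RM04, and nasally at 1.24 and 0.252 CPM against 251 and 238 CPM, so RM04 was higher at 3 of the 4 locations. The peripheral libraries had their own flow cell, and its part in this difference cannot be told apart from that of location.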

How the results depend on the processing

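The number of genes called between perimacula and periphery was 7733, and 6131 to 8407 under the settings that kept every eye. It was 7285 with the eye as a replicate block in place of the animal, of which 7206 were called in both fits, and 6095 to 7292 with 1 eye left out. The block changed the call of 2 of the 119 named genes, ND4 and SCGN. The share of calls that were higher in the periphery shifted with the scaling: 4130 higher and 3603 lower with TMM, 3788 and 4026 with RLE factors, and 3921 and 4205 with DESeq2. Among the named genes, 22 lost the call under at least 1 setting, 2 gained one (ACTA2 with 2 lanes per library and PRSS56 with DESeq2) and 3 changed sign. LOC721061 changed sign to -2.19 without the animal covariate and ranged from -0.95 to 3.09 with 1 eye left out, CHRND reached 2.46 with DESeq2 and ranged from -3.27 to 1.62, and PRSS56 changed to -1.32 without the covariate and ranged from -0.36 to 4.87. Averaged over the animals these 3 did not pass in the main test, and leaving out an eye shifts their average toward the other animal.

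The step difference was called for 1154 genes without the animal covariate and for 637 to 2170 with 1 eye left out. The animal difference was called for 91 genes with DESeq2, 28 with the nasal libraries included, 4 with the eye as a replicate block, and 0 to 6 with 1 eye left out, where a lone eye was assumed to vary like the others. Nasal minus perimacula was called for 785 genes with DESeq2 (382 higher, 403 lower), 29 without the covariate (22 higher, 7 lower), 149 with 2 lanes per library (92 higher), and 14 to 66 with 1 eye left out (11 to 53 higher, 3 to 13 lower). Its lower genes numbered 104 with no filter, 42 with the eye as a replicate block and 43 with the compared locations only. The cause of these shifts was not tested. Depth was 42448891 counts or more per library, and thinning to equal depth left 7571 calls. The limits are 2 animals, a periphery with its own flow cell, and RPE transcripts that differ between the groups.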

Other observations

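The other genes whose change differed between the animals were of several kinds (edgeR interaction test, adjusted p, RM04 minus RM03 on the log2 scale, 2 eyes of each animal at each location). MAMU-DRA, a class II antigen-presenting chain that pairs with CD74 in the cell, rose from perimacula to periphery by 1.14 and did so by 1.62 more in RM04 (adjusted p = 0.0284). SERPINA3, a protease inhibitor of the acute phase response, rose by 2.71, and by 4.04 more in RM04 (adjusted p = 0.0362), from 0.803 ± 0.19 CPM to 7.52 ± 7.29 CPM (SD, n = 4). TIAM1, an activator of RAC1, differed by 1.27 between the animals (adjusted p = 0.014). SIK1, a kinase induced by cyclic AMP (-2.45, adjusted p = 0.00517), and SEC14L5 (-1.60, adjusted p = 0.014) differed in the other direction, as did both entries of FABP5, a fatty acid carrier (-2.33 and -2.40), between which reads could have been split.

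GNB1, the beta subunit of rod transducin, stood at 6851, 6462, 7488 and 5377 CPM in the perimacula and at 8204, 8513, 7654 and 8206 CPM in the periphery (0.33 ± 0.10, adjusted p = 0.02, edgeR), and lost the call without replicate 1, 2 or 4. SLC45A2, a transporter of melanosomes, stood at 0.364, 0.644, 1.87 and 0.751 CPM against 3.16, 6.17, 7.74 and 12.9 CPM (3.09 ± 0.33).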
